A study of Mus musculus with 8 samples.

Results

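The CXC chemokine genes Cxcl1, Cxcl2, Cxcl3, Cxcl5, Cxcl9, Cxcl10, Cxcl11, Cxcl13, Cxcl14 and Cxcl16 were examined in 4 lists of ChIP-seq peaks from the D1 cell line. The 10 genes were taken by name, 9 of them from the 22367 genes annotated as protein-coding on mm9 and Cxcl11 as an annotated transcript without a coding call. A gene was assigned every NFATc2 summit within 100 kb of a transcription start site (TSS), and every H3K4me3 peak that overlapped it or lay within 1 kb of a TSS. By this rule 18 of the 9438 NFATc2 sites belonged to the chemokine genes.

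D1 is a long-term dendritic cell line from the spleen of C57BL/6 mice. NFATc2 (NFAT1 in the sample labels) was precipitated through a V5 tag after 30 min of curdlan at 10 µg/ml, from D1 cells that stably expressed the tagged protein from a lentivirus, so the sites are those of an introduced protein. H3K4me3 was precipitated from D1 cells that were not treated (NT), that had received curdlan at 10 µg/ml for 2 h, or that had received curdlan with FK506 for 2 h, the dose of FK506 not being given in the labels. There was a single ChIP library and a single input library for each condition, without replicates. No test between conditions was therefore run, and every interval below covers counting error only. Header totals ranged from 14377535 to 21289349 ChIP tags and from 9309800 to 12085435 input tags. All 9 dendritic cell markers found in the annotation, among them the dectin-1 gene Clec7a, carried H3K4me3 in every list, as did 4 of 24 markers of other cell types.

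CXC chemokines are small proteins that direct leukocytes through G protein-coupled receptors. Cxcl1, Cxcl2, Cxcl3 and Cxcl5 attract neutrophils through Cxcr2, whereas the interferon-induced Cxcl9 and Cxcl10 attract activated T cells through Cxcr3. Cxcl11 is grouped with these Cxcr3 ligands, although the mm9 annotation used here gives it no coding call. Cxcl13 guides B cells through Cxcr5, Cxcl16 is a membrane-bound ligand of Cxcr6, and Cxcl14 is made mainly by epithelia. Curdlan is a bacterial glucan, similar to those of fungal cell walls, that engages dectin-1, whose calcium signal lets calcineurin send NFAT to the nucleus, and FK506 inhibits calcineurin. H3K4me3 is a histone mark of active and poised promoters.

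The sequence just upstream of Cxcl2 is shown because it lies under the NFATc2 site nearest to any of these starts, at chr5:91332597-91332896 of mm9 on the plus strand, ending at the base before the TSS. Capitals mark matches to the NFAT core GGAAAA and to the NF-kB consensus on either strand.
Cxcl2 upstream: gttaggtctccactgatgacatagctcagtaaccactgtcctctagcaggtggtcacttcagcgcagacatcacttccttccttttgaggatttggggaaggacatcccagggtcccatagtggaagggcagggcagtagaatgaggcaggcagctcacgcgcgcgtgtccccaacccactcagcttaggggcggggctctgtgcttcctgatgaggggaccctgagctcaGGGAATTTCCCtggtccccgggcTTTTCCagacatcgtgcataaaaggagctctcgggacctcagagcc
The run GGGAATTTCCC held 2 overlapping NF-kB matches, 1 on each strand, the leftmost base 69 bp before the TSS. The GGAAAA core was on the minus strand, 46 bp before the TSS.

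The next windows, each 201 bases around an NFATc2 summit and written on the plus strand of mm9, are shown because they hold the sites with the most tags at the loci of Cxcl16 (site 4) and of Cxcl1 and Cxcl2 (site 13), and every site with both GGAAAA and the AP-1 sequence TGANTCA (sites 4, 9, 14 and 16). Capitals mark these motifs on either strand. Site 4 is chr11:70260199-70260399, site 9 chr5:91144718-91144918, site 13 chr5:91327597-91327797, site 14 chr5:91329888-91330088 and site 16 chr5:92797521-92797721. Sites are numbered 1 to 7 along chromosome 11 and 8 to 18 along chromosome 5.
site 4: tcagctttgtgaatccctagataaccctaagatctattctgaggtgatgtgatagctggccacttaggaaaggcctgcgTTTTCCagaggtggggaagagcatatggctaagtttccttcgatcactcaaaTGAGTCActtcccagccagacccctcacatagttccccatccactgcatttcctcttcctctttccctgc
site 9: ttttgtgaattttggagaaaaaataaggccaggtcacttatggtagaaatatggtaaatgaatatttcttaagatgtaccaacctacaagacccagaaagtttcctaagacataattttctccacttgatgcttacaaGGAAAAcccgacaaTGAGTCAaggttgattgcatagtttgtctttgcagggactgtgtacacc
site 13: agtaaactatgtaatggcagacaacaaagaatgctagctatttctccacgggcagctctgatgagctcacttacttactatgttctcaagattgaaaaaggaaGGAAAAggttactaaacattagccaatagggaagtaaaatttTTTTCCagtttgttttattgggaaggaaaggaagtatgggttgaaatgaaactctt
site 14: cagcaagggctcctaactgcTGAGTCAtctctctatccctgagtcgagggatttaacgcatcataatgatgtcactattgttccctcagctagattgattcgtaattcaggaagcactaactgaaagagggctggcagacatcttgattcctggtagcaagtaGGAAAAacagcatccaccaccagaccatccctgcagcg
site 16: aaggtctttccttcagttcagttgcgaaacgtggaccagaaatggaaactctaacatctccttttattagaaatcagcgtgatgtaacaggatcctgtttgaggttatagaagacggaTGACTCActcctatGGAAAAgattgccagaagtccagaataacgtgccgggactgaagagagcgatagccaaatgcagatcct

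Of the 10 chemokine genes, 9 had an NFATc2 summit within 100 kb, Cxcl14 being the exception, while 55.3% of all protein-coding genes had such a summit. Neighbouring genes shared sites, so the genes fell into 6 loci, 5 of which held a site. The 18 sites made 28 gene-site links, with 9 sites counted for several chemokine genes and 9 for a single gene. Within 1 kb of a TSS a summit was found at Cxcl2 alone, against 5.29% of all protein-coding genes. The median distance from a chemokine gene to its nearest summit was 13.6 kb.

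**Figure D1:**
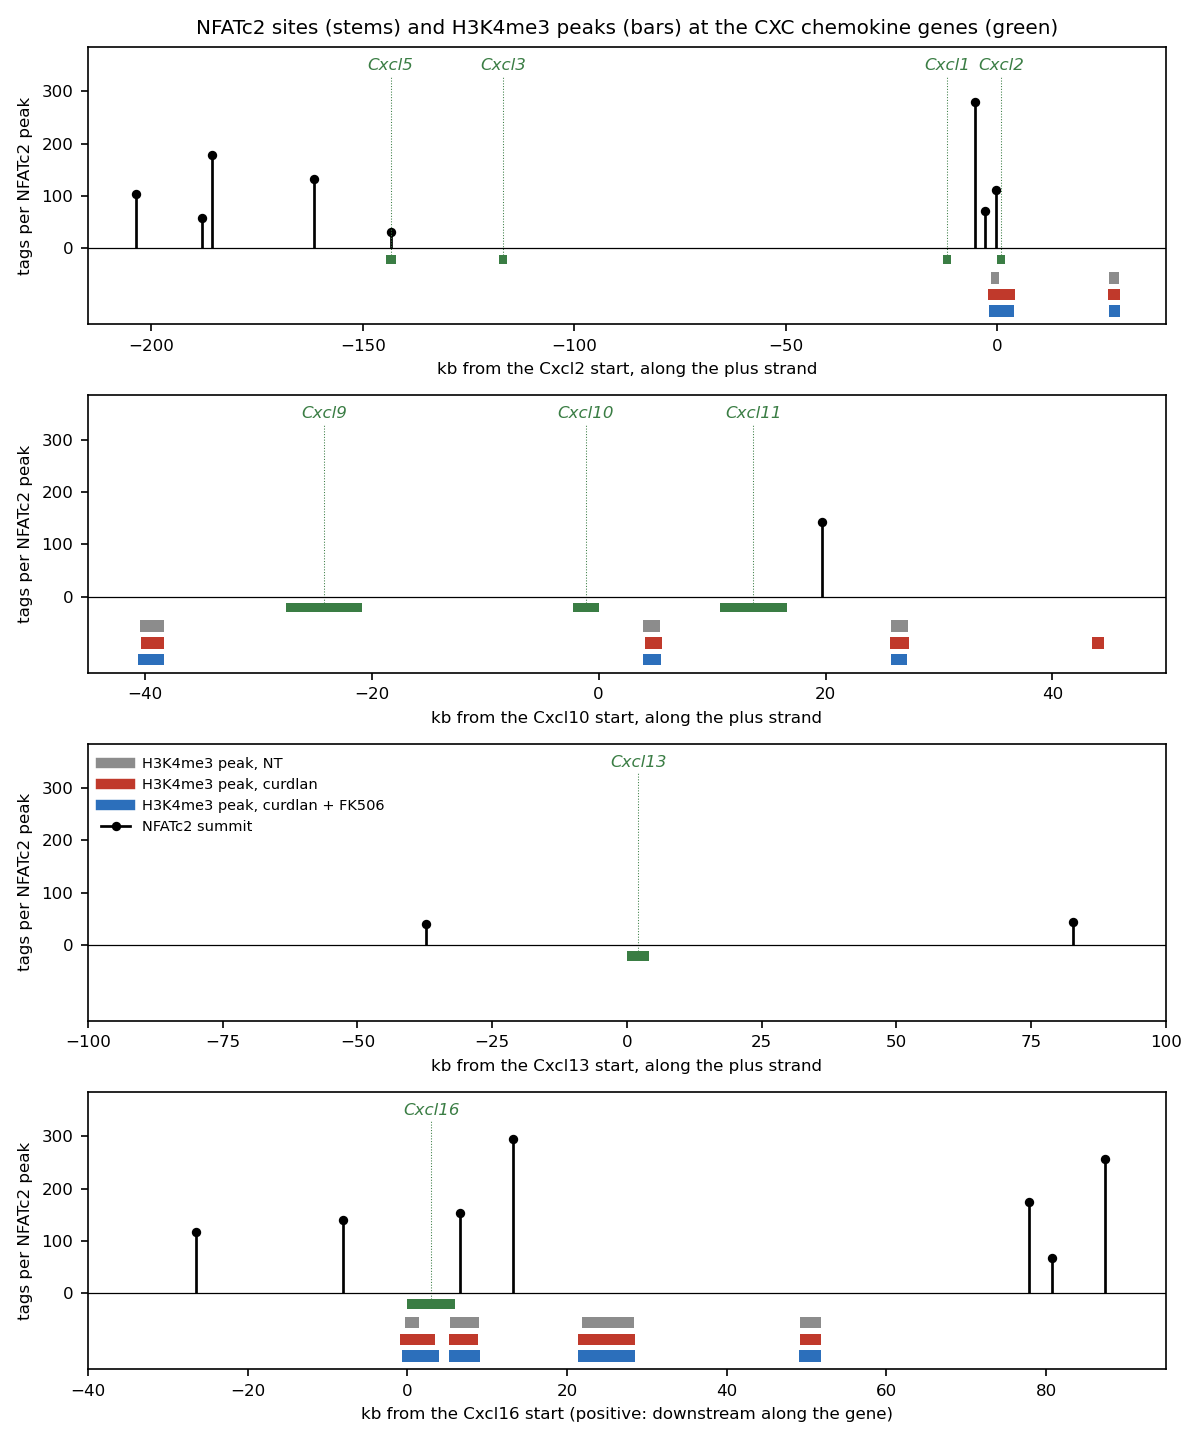
NFATc2 summits and H3K4me3 peaks at the chemokine loci, with distance in kb from the start of a named gene on the horizontal axis and tags per NFATc2 peak as the height of each stem. Green bars are the genes, and the bars beneath them are H3K4me3 peaks in NT (grey), curdlan (red) and curdlan + FK506 (blue), drawn to their length; the 3 sites near Cxcl2 and the H3K4me3 peak over its start lie together, whereas no H3K4me3 peak is near Cxcl3, Cxcl5 or Cxcl13.

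Among the neutrophil chemokines, Cxcl1 (chr5:91320267-91322141) and Cxcl2 (chr5:91332897-91334935), both on the plus strand, shared 3 sites. The tallest, site 13, lay in the interval between them, 7430 bp downstream of the Cxcl1 start and 5200 bp upstream of the Cxcl2 start, with 280 tags (exact 95% Poisson interval 248 to 315) and a fold enrichment over local background of 30.3. It held more tags than 97.6% of all NFATc2 sites, and its MACS p-value was 1.4e-79. Its window contains 2 GGAAAA cores, the nearer one centred 5 bp from the summit.

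Site 14, 2909 bp upstream of Cxcl2, was weaker, with 72 tags (56.3 to 90.7) and a fold enrichment of 8.85. Site 15, over the upstream sequence printed above, had 111 tags (91.3 to 134) and a fold enrichment of 16.6. Its summit was 286 bp from the Cxcl2 start. No GGAAAA lay within 100 bp of that summit, and the nearest was the core centred 242 bp away, close to the TSS. Cxcl1, a paralogue of Cxcl2, had these same sites only on its downstream side.

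Cxcl3 (chr5:91215129-91217112) and Cxcl5 (chr5:91188325-91190651), also on the plus strand, shared 5 other sites with each other and none with Cxcl1 or Cxcl2. The same 5 sites lay within 100 kb of Pf4, Ppbp and Cxcl15, CXC ligands of the same cluster. Sites 8, 9, 10 and 11 were intergenic, from 58988 to 17046 bp upstream of the nearest Cxcl5 start, and had 104, 59, 178 and 132 tags. Site 10 was the tallest of them, with a fold enrichment of 23.4, although no motif searched for was within 100 bp of its summit. Site 12, in the last exon of Cxcl5 and 1248 bp past a start, was the weakest of the 18 with 32 tags (21.9 to 45.2), but its fold enrichment was 17.6. It was the nearest site of both genes and lay 25469 bp upstream of Cxcl3.

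The Cxcr3 ligands Cxcl9 (chr5:92750357-92757105), Cxcl10 (chr5:92775664-92777915) and Cxcl11 (chr5:92788570-92794511) lie in a row on the minus strand and had a single site in common. Site 16 was in an intron of Art3, a gene for a surface protein related to ADP-ribosyltransferases, with 142 tags (120 to 167) and a fold enrichment of 15.0. It stood upstream of all of them, 3110 bp from Cxcl11, 19706 bp from Cxcl10 and 40516 bp from Cxcl9. In the window printed above, 7 bases separate TGACTCA from GGAAAA. The same window held a match to the interferon response element, 2 GAAA words 2 bases apart. Such a match was present at 1 of the 18 sites, or 5.56%, beside 6.50% of all NFATc2 sites.

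Cxcl13 (chr5:96385945-96390086, plus strand) had 2 weak sites, with 40 and 44 tags, at 37265 bp upstream and 82677 bp downstream. Cxcl14 (chr13:56390008-56397912, minus strand) had none within 100 kb; its nearest summit, with 75 tags, was 114663 bp downstream. The tags at the sites of Cxcl13 summed to 84, fewer than at any other locus with a site.

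Cxcl16 (chr11:70267485-70273486, minus strand) had 7 sites, a number reached by 2.20% of protein-coding genes, whose median was 1. From the most downstream to the most upstream they had 256, 68, 175, 294, 154, 139 and 117 tags. Sites 1, 2 and 3 lay far off, 86784, 80147 and 77225 bp downstream, each nearer to the start of another protein-coding gene. Within 30 kb of a Cxcl16 start there were 4 sites. Site 4 was the tallest of the 18, with 294 tags (261 to 330) and a fold enrichment of 26.5. It was intergenic, 12611 bp downstream of the nearest Cxcl16 start and 5122 bp upstream of Med11, which encodes a Mediator subunit. Site 5 was the nearest, 6013 bp downstream, and lay in an exon of Med11, the neighbour that overlaps the 3′ end of Cxcl16. Its fold enrichment was 9.38, above that of 17.6% of all NFATc2 sites, and its MACS p-value was 4.5e-09. Site 6, 8041 bp upstream of Cxcl16, held an AP-1 motif and an NF-kB motif but no GGAAAA within 100 bp.

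The 18 sites together had a median of 124.5 tags and ranged from 32 to 294, beside a median of 63 over all NFATc2 sites; 14 of the 18 were above that median. Their fold enrichment had a median of 16.4, beside 13.4 over all sites. Of the 18 summits, 15 were outside every annotated gene, 2 in exons and 1 in an intron, whereas 46.9% of all summits were outside every gene. The sites at Cxcl16 accounted for 1203 tags in sum, those at Cxcl3 and Cxcl5 for 505, and those at Cxcl1 and Cxcl2 for 463.

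**Figure D2:**
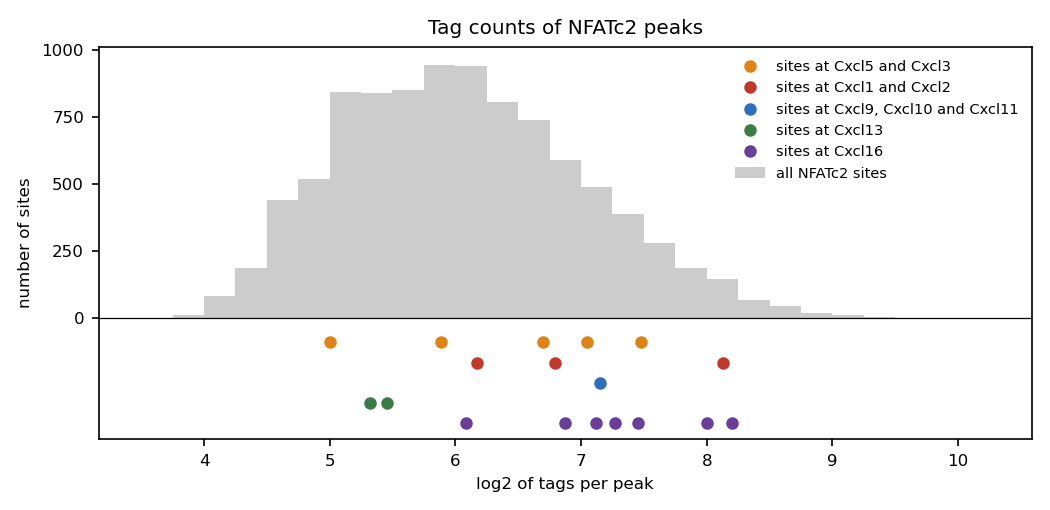
Histogram of tags per NFATc2 peak on a log2 scale for all 9438 sites (grey, vertical axis in number of sites), with the 18 sites at the chemokine loci as coloured points below, 1 row for each locus; only the horizontal position of a point carries a value. Most points are to the right of the grey mode, while the sites of Cxcl13 and site 12 of Cxcl5 are to its left.

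GGAAAA lay within 100 bp of the summit at 10 of the 18 sites, or 55.6% (exact binomial 95% interval 30.8 to 78.5), beside 45.6% of all NFATc2 sites. TGANTCA was found at 5 sites, or 27.8% (9.69 to 53.5), beside 21.8%. These intervals contain the shares of the whole list. Both motifs were present at 4 of the 18 sites and at 8.34% of all sites. The closest pairs were at site 9, with 8 bases between the motifs, and at site 16, with 7, while 46 and 136 bases separated them at sites 4 and 14.

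In the 300 bases before the TSS, the NF-kB consensus was present in all of the neutrophil chemokine genes Cxcl1, Cxcl2, Cxcl3 and Cxcl5 and in Cxcl10, 5 of the 10 genes, and in 4.88% of protein-coding genes. The close paralogy of Cxcl1, Cxcl2 and Cxcl3 means that these matches are not independent. GGAAAA was present in Cxcl2, Cxcl5 and Cxcl9, beside 25.0% of protein-coding genes. The interferon response element was present in Cxcl10 and Cxcl14, beside 4.11%, and TGANTCA in Cxcl10 alone, beside 7.13%. A match is a string of letters in this window and not a measured binding site.

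H3K4me3 was found at Cxcl2 and Cxcl16 and at none of the other 8 chemokine genes. This count of 2 of 10 was the same in NT, curdlan and curdlan + FK506, whereas 51.4%, 51.2% and 51% of all protein-coding genes carried a peak in the respective lists. Curdlan thus added no listed peak to any chemokine gene without one, and FK506 removed none. The lists hold only peaks past a MACS p-value of 1e-05, and the smallest listed H3K4me3 peaks had 18, 26 and 23 tags, so a weaker mark at the other 8 genes would not be seen.

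The distance from the unmarked genes to the nearest H3K4me3 peak varied widely. Cxcl10 was closest: an H3K4me3 peak within Art3 began 3.93 kb from it in NT, 4.10 kb in curdlan and 3.89 kb in curdlan + FK506. It had 214, 246 and 240 tags, and their curdlan over NT ratio, after scaling to the ChIP total of each library, was 0.900 (0.746 to 1.09). A second Art3 peak, 9.77 kb upstream of Cxcl11 in NT and beyond site 16, had 151, 137 and 119 tags, with a ratio of 0.710 (0.559 to 0.901). Site 16 lay between these peaks and overlapped neither. A small peak at an Art3 start, 27.4 kb upstream of Cxcl11, was listed in curdlan alone, with 42 tags and an FDR of 13.04%. Cxcl1 was 10.6 to 11.1 kb from the Cxcl2 peak. Cxcl9 was 17.4 to 17.5 kb from a peak of Sdad1. Cxcl3, Cxcl5, Cxcl13 and Cxcl14 were each more than 100 kb from any.

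Of the 18 NFATc2 sites, 2 overlapped H3K4me3, in every list the same ones: site 15 at Cxcl2 and site 5 in Med11. Over all NFATc2 sites the share was 25.4% in NT, 24.9% in curdlan and 24.1% in curdlan + FK506. Site 14 came close, its peak ending 0.769 kb from the H3K4me3 peak of Cxcl2 in NT and 0.281 kb from it in curdlan.

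The H3K4me3 peak over the Cxcl2 start had 179 tags in NT (exact Poisson interval 154 to 207), 861 in curdlan (804 to 920) and 699 in curdlan + FK506 (648 to 753). Scaled to 1000000 ChIP tags in the header, called normalized tags from here on, this was 10.7, 40.4 and 35.9. Both curdlan-treated libraries were thus well above NT. Curdlan over NT gave 3.76 times as many normalized tags (3.20 to 4.45), while the median of the 10815 genes whose start was marked both times was 0.918. Cxcl2 stood at percentile 99.5 of these genes. Its NT peak was small, with more tags than 26.3% of the peaks in that list.

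The gain at Cxcl2 came with a longer peak. It spanned 2044 bp in NT, 6327 bp in curdlan and 5941 bp in curdlan + FK506. In NT it reached from 1497 bp upstream to 546 bp downstream of the TSS, and in curdlan from 1985 bp upstream to 4341 bp downstream, past the end of the 2039 bp gene. Its length ratio of 3.10 stood at percentile 99.5, beside a median ratio of 1.03. The normalized tags per kb of peak had a smaller ratio, 1.22 (1.03 to 1.44), beside a median of 0.881.

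Cxcl16 was also higher and longer in both curdlan-treated libraries than in NT. Its TSS peak, which also covers the start of the divergent gene Zmynd15, had 192 tags in NT, 776 in curdlan and 871 in curdlan + FK506, or 11.5, 36.5 and 44.7 normalized tags. Curdlan over NT was 3.16 (2.70 to 3.72), at percentile 99.3. In NT this peak had more tags than 27.9% of the listed peaks. The peak lengthened from 1775 bp to 4446 bp and then stood at 4652 bp with FK506, a curdlan over NT ratio of 2.50. As at Cxcl2, the normalized tags per kb of this peak had a smaller ratio, 1.26 (1.08 to 1.49), beside a median of 0.881. Its downstream end lay 1485 bp inside Cxcl16 in NT and 3515 bp in curdlan, while its upstream end lay at 289 and 930 bp.

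A separate peak at the 3′ end of Cxcl16 belongs also to the start of Med11. It had 789, 1066 and 1057 tags, and its curdlan over NT ratio was 1.06 (0.964 to 1.16). Its interval does not overlap that of the TSS peak. The other H3K4me3 peaks near the chemokine genes that NT and curdlan shared had ratios from 0.710 at the second Art3 peak to 1.32 (1.17 to 1.49) at Psmb6, some of them with intervals that exclude 1. At Mthfd2l, the neighbour of Cxcl2, 1 peak of 452 tags in NT matched 2 peaks in curdlan with 513 tags in sum, a ratio of 0.888 (0.781 to 1.01).

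**Figure D3:**
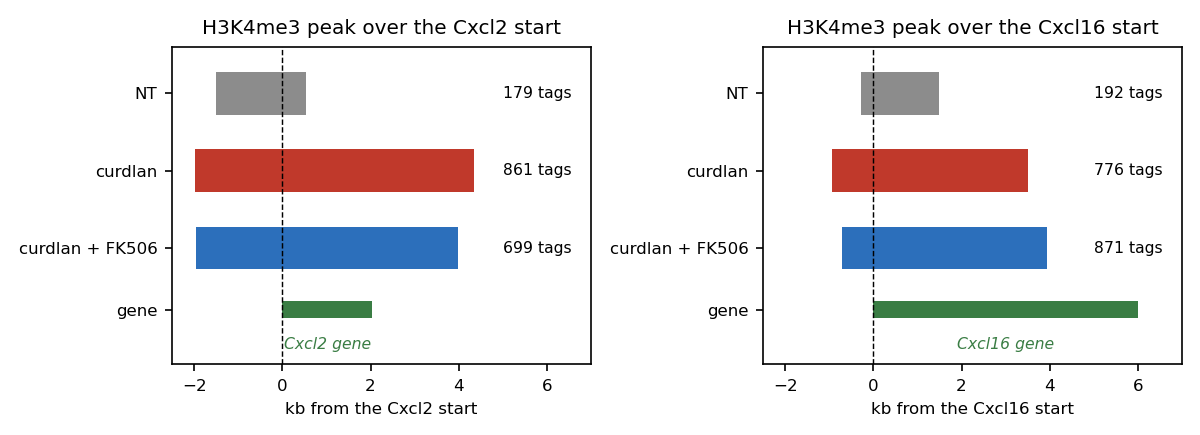
Extent of the H3K4me3 peak over the start of Cxcl2 (left) and Cxcl16 (right), in kb from the start with the direction of transcription to the right, for NT (grey), curdlan (red) and curdlan + FK506 (blue); the number beside each bar is the tags in that peak and the green bar is the gene. With curdlan both peaks extend mainly into the downstream side, and the bars with FK506 are close to those with curdlan.

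At both genes the TSS peak was at least 2-fold longer in curdlan than in NT, as in 2.53% of the genes marked at the start both times, and had at least 2-fold more normalized tags, as in 2.21%. These readouts of the TSS peak were chosen after the data had been seen. The readout set for the comparison, the fold enrichment of the strongest peak of a gene centred on the median gene, gave smaller values. Fold enrichment at Cxcl2 was 10.6 in NT, 31.1 in curdlan and 19.4 in curdlan + FK506, and the centred curdlan over NT change was 0.82 on the log2 scale, or 1.77-fold. Among the genes marked at the start both times, this change of the TSS peak stood at percentile 93.1. At Cxcl16 the strongest peak was the Med11 one in NT, at 29.6, and the TSS one in curdlan, at 55.6, so that the centred change of 0.18 compares different peaks. In normalized tags of these same peaks it was -0.25. The TSS peak of Cxcl16 had a fold enrichment of 28.55 in NT. Compared with itself, its centred change was also small, 0.23 on the log2 scale or 1.17-fold, at percentile 67.4.

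The 8 genes without a peak have no value by that readout. Of the 2 with one, 0 were at least 2-fold higher and 0 at least 2-fold lower, beside 3.81% and 3.8% of the 11298 protein-coding genes marked in NT and in curdlan. The median gene itself was 0.73 higher on the log2 scale in fold enrichment in curdlan than in NT. The ratio of ChIP to input tags was 2.29 in the curdlan libraries and 1.38 in the NT libraries, and its part in that shift was not tested.

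In normalized tags, the mark at both genes with FK506 was closer to the curdlan level than to the NT level. At Cxcl2, curdlan + FK506 over curdlan was 0.888 in normalized tags (0.802 to 0.982), beside a median of 0.969, and stood at percentile 17.8. At Cxcl16 it was 1.23 (1.11 to 1.35), at percentile 96.7. Cxcl2 was thus lower and Cxcl16 higher with FK506 on this scale, and their counting intervals do not overlap. The interval of Cxcl2 contains the median gene. Per kb of peak the ratio was 0.945 (0.854 to 1.05) at Cxcl2, an interval that includes 1, and 1.17 (1.06 to 1.29) at Cxcl16. Length changed little, by ratios of 0.939 at Cxcl2 and 1.05 at Cxcl16.

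Against NT, curdlan + FK506 stood at 3.34 (2.83 to 3.96) for Cxcl2 and 3.88 (3.32 to 4.56) for Cxcl16. In centred fold enrichment, FK506 over curdlan was -0.41 on the log2 scale at Cxcl2 and 0.82 at Cxcl16. Of these 2 genes 0 were at least 2-fold higher and 0 at least 2-fold lower, beside 3.39% and 3.76% of the 11277 protein-coding genes marked in curdlan and in curdlan + FK506. Against NT the centred change with FK506 was 0.42 at Cxcl2, so that by this readout Cxcl2 stood midway between NT and curdlan, and 1.01 at Cxcl16, whose strongest peak in NT is the Med11 one. For the TSS peak of Cxcl16 alone it was 1.06. The curdlan library enters both contrasts, which are therefore not independent.

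**Figure D4:**
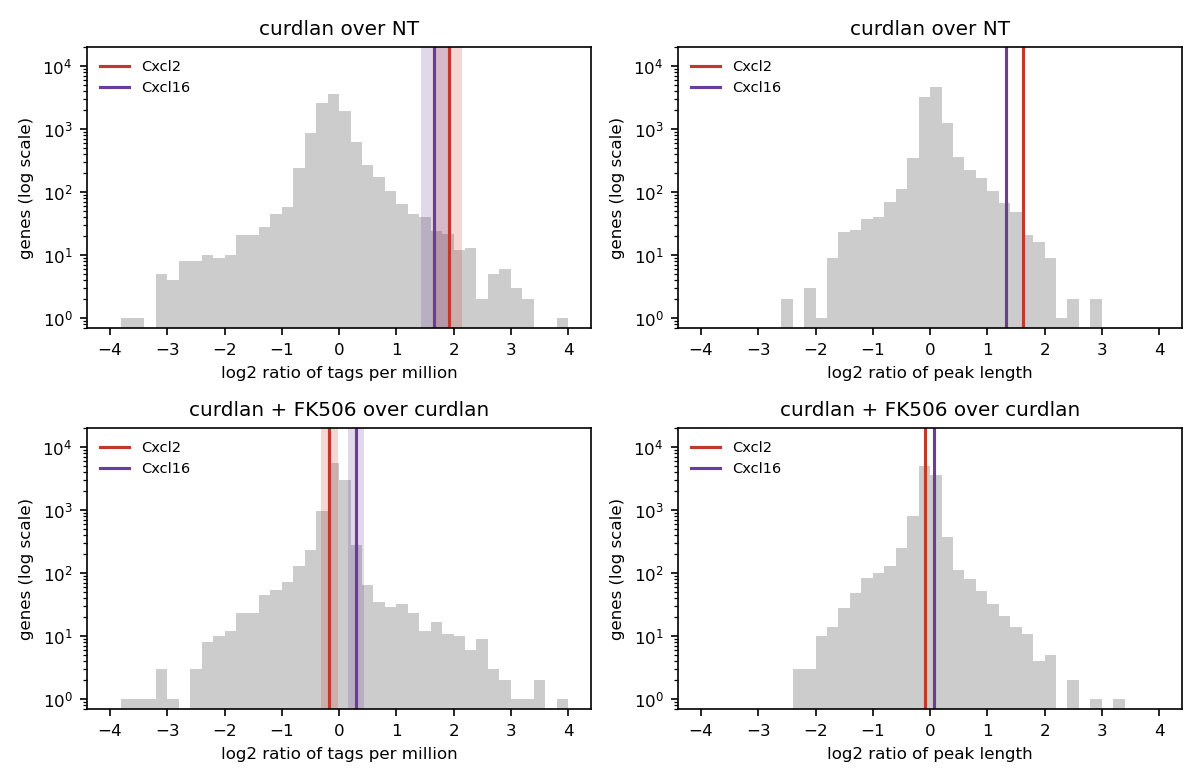
Histograms of the log2 ratio of tags per 1000000 ChIP tags (left) and of peak length (right) for the TSS peaks of genes marked in the pair of lists compared, for curdlan over NT (top) and curdlan + FK506 over curdlan (bottom), with the number of genes on a log axis. Lines mark Cxcl2 (red) and Cxcl16 (purple), shading their counting interval. Both lie in the right tail for curdlan over NT. With FK506, Cxcl2 lies within the tallest bin and Cxcl16 to the right of it.

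The other CXC ligands and the receptors were taken as a list for context. Of the ligands Pf4, Ppbp, Cxcl12, Cxcl15 and Cxcl17, 4 of 5 had an NFATc2 summit within 100 kb, 3 of them through the sites of Cxcl3 and Cxcl5, and 0 had H3K4me3. Of the 7 receptors, 5 had a summit within 100 kb. Cxcr4, the receptor of Cxcl12, was the only one with H3K4me3 in every list, with 1118, 1156 and 1098 tags. Its curdlan over NT ratio in normalized tags was 0.809 (0.745 to 0.879), beside a median of 0.918 over genes marked at the start. In centred fold enrichment its change was 0.05 on the log2 scale. Cxcr5, the receptor of Cxcl13, had a small peak of 53 tags in NT alone.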

How the data were processed

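Peak lists of 4 ChIP libraries were used. According to the submitters' labels and the study's methods, reads were mapped to mm9 with bowtie 1. The authors called peaks with MACS, 1.4.2 per the file headers, in each library against its own input with a p-value threshold of 1e-05. For each peak the deposited lists give the tag count, which is not normalized. They also give a deposited score, 10 times the negative log10 of the p-value, the fold enrichment, a ratio to the local background, and the deposited FDR in percent.

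The members and the lists of related genes and markers were chosen with earlier results of these data known. The genes named are the chemokine genes, the other CXC ligands and receptors, and genes that share a site or peak with a member; Sdad1, Psmb6, Mthfd2l and Clec7a were named outside this rule after their values were seen. The mm9 reference was NCBI build 37 with GENCODE M1 (Ensembl 65). The summit was taken as the position of a site. Peaks were called overlapping at 1 bp or more, and normalized tags are tags per 1000000 ChIP tags of the header total. The duplicate-filtered totals were not used. Counts have exact Poisson intervals, shares exact Clopper-Pearson intervals and ratios of counts exact conditional binomial intervals, at 95%. Scripts used Python 3.11.15, pandas 2.3.3, scipy 1.17.1 and pysam 0.24.0 and were tested on simulated data. Alternatives covered the windows, the p-value and FDR limits, the motif window and the H3K4me3 readout; readouts restricted to TSS peaks were added after seeing the data.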

Additional observations from a re-analysis of the deposited data

How the results depend on the processing

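Chemokine genes whose start had an NFATc2 summit at 1 kb or less numbered 1 and became 3 with a window of 5 kb and 2 when the edge of the peak was used. The distinct sites were 18 within 100 kb, 10 within 30 kb and 9 within 20 kb. The chemokine genes with a summit numbered 9, 7 and 6 in these windows. The share of all protein-coding genes was not taken at 30 or 20 kb. The share with GGAAAA was 55.6% and became 83.3% within 250 bp. The number of genes at least 2-fold higher in H3K4me3 in curdlan than in NT was 0; it was 1 by normalized tags, 1 without centring and 1 by normalized tags summed over a gene's peaks, in each case Cxcl2, and 2 by uncentred normalized tags of TSS peaks, an alternative chosen after seeing the data. The remaining 48 alternatives for the comparisons stayed within 1.5 times the reported count or within its interval. Among them, the chemokine genes with an H3K4me3 peak rose from 2 to 3 in each list with a TSS window of 5 kb. The added gene was Cxcl10, through the nearer peak within Art3. The centred log2 change of Cxcl2 kept its sign in both contrasts, though not its size. For curdlan over NT it was 0.82 and became 2.04 by normalized tags and 0.47 by normalized tags per kb; for FK506 over curdlan it was -0.41 and became -0.13 and -0.07. For Cxcl16, FK506 over curdlan was 0.82 and became 0.34 and 0.25. Its curdlan over NT change was 0.18 and became -0.25 by normalized tags and -0.52 by normalized tags per kb, where the strongest peak in NT is the Med11 one. For its TSS peak it was 0.23 by centred fold enrichment and 1.66 by uncentred normalized tags. With peaks limited to a p-value of 1e-10 or less, the distinct sites fell from 18 to 14. The nearest summit then moved from 37.3 to 82.7 kb for Cxcl13, from 114.7 to 144.7 kb for Cxcl14 and from 6.01 to 8.04 kb for Cxcl16. No paired analysis was possible because each condition had 1 ChIP library. Depth limits what the lists show: a peak under the calling threshold is not listed.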
